A study of Mus musculus with 8 samples.

Results

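The transcription factors that hold mouse embryonic stem cells (ESCs) in the naive state of pluripotency were examined through the m6A peaks on their mRNAs. The 8 genes were Klf2, Klf4, Klf5, Esrrb, Tfcp2l1, Tbx3, Zfp42 and Prdm14. Peaks were assigned to a gene when their exon blocks shared 1 or more bases, on the same strand, with its exons in GENCODE release M21 (genome build GRCm38, also called mm10). This gave 34 of the 18895 peaks of the DMSO list and 33 of the 13001 peaks of the Dox list, and 0 of them lay in an exon of another gene on the same strand as well. All 8 genes carried a DMSO peak and 7 carried a Dox peak, whereas 27.5% of the 22028 protein-coding genes had a DMSO peak and 22.1% had a Dox peak. The 22028 genes were not filtered for expression in these cells, and the part of expression in these counts was not tested.

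The peaks came from methylated RNA immunoprecipitation sequencing (MeRIP-seq), in which fragments of poly(A) RNA carrying N6-methyladenosine (m6A) are captured with an antibody (IP) and sequenced beside unselected RNA (input). The labels described 8 libraries of E14 ESCs in 4 groups of 2 replicates, an IP and an input group for each treatment. Cells of every group grew on gelatin with serum replacement and leukemia inhibitory factor, received the solvent DMSO or doxycycline (Dox) for 24 h, and, by the study's account, carried a Dox-inducible Dux transgene and a tdTomato reporter driven by the Mervl promoter. Dux is a transcription factor that turns ESCs into cells similar to those of 2-cell embryos (2C-like cells), and whether the line was 1 clone was not given. Each treatment had 1 peak list with its replicates combined, so that no value below has a replicate error, no test between treatments was possible, and read depth was unknown. The peak score was the authors' −log10 p-value, and because it depends on depth it is given here mainly as a percentile among the peaks of its own list.

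Naive pluripotency is maintained by a network of transcription factors that acts downstream of leukemia inhibitory factor and of restrained FGF signalling, and its members largely activate one another. Klf2, Klf4 and Klf5 are Krüppel-like factors that bind GC-rich DNA through zinc fingers at their carboxyl end. Esrrb is an orphan nuclear receptor, Tfcp2l1 a factor of the grainyhead/CP2 family, Tbx3 a T-box factor, Zfp42 (also called Rex1) a zinc finger protein related to YY1, and Prdm14 a PR-domain zinc finger protein that restrains FGF signalling and de novo DNA methylation. Adenosine in mRNA is methylated mostly within the consensus DRACH (D being A, G or T in DNA letters, R being A or G and H being A, C or T), of which GGAC is the best-known core, and m6A on transcripts of pluripotency factors is known to shorten their lifetime.

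Peaks on markers of cell types were counted beside the label of the cells. A peak does not measure expression, and a marker without a peak may still be expressed. Of 8 ESC marker genes, 8 had a peak in each list, and 0 of 6 markers of primitive endoderm had one in either list. Of 9 markers of 2C-like cells, 2 carried peaks in DMSO and 9 in Dox, and the 9 include the gene of the induced transgene. Trophoblast markers with a peak were Eomes, in the DMSO list alone, and Tfap2c, in both lists, out of 6, and among 6 fibroblast markers the only one was Vim, in both lists.

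The stretches printed here show what the peaks covered in the transcripts, with the m6A core motif in capitals. The first set holds coding stretches in which GGAC recurred inside a long peak found in both lists. Except in Esrrb, the stretches were picked as those with most GGAC in their peaks, so that they overstate its density there. They lay in Tbx3 (chr5:119674032-119674231, plus strand, in the peak over the start codon), Klf2 (chr8:72319426-72319575, plus strand, in the first of its peaks), Klf4 (chr4:55530095-55530244, minus strand, in its middle peak) and Esrrb (chr12:86518821-86518970, plus strand, in the peak over the stop codon), all in GRCm38 and 5′ to 3′ along the mRNA.
Tbx3 coding stretch: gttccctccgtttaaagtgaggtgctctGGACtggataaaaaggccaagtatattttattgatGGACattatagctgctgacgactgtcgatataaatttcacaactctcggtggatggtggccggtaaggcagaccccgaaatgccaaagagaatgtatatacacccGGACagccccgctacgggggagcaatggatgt
Klf2 coding stretch: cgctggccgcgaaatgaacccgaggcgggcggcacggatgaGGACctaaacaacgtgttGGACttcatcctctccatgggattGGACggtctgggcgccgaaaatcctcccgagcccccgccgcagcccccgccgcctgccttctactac
Klf4 coding stretch: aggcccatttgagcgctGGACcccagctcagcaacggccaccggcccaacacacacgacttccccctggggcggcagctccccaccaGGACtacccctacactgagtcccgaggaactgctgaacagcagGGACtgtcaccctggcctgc
Esrrb coding stretch: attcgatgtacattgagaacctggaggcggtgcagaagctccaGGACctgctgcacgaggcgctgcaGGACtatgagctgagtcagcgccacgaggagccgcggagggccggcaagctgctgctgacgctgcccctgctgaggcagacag

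The second set shows peaks where GGAC was rare or absent. The stretch of Zfp42 (chr8:43296052-43296111, minus strand) surrounds the only GGAC of a DMSO peak of 1250 nt, and the stretch of Klf5 (chr14:99313186-99313329, plus strand) is the coding part of the peak over its stop codon, which held no GGAC, so that its DRACH matches are in capitals instead. The stretch of Esrrb (chr12:86488586-86488663, plus strand) is the part in exon 3 of the best-scoring peak of all members, and it held neither motif.
Zfp42 coding stretch: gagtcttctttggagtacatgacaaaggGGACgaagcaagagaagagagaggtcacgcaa
Klf5 coding stretch: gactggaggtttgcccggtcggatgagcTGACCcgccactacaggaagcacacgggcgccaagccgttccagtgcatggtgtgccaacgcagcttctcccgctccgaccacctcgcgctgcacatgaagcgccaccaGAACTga
Esrrb exon 3 stretch: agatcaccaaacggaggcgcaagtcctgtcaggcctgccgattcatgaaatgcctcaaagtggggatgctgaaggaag

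The third set holds sites of the DMSO list with no Dox peak, together with a distal site that was kept. Both Prdm14 peaks (chr1:13125422-13125446 of 25 nt and chr1:13125272-13125396 of 125 nt, minus strand) are given whole with DRACH in capitals, of which the shorter held none. The Tfcp2l1 site (chr1:118683356-118683380, plus strand) was 1 of 4 DMSO-only sites in its long 3′UTR and the only one of them with GGAC, here in capitals. The Klf5 site (chr14:99314577-99314606, plus strand) is 30 nt of a distal 3′UTR peak present in both lists, with its GGAC in capitals.
Prdm14 first peak: cggcggcggcggtggccaaatcagt
Prdm14 second peak: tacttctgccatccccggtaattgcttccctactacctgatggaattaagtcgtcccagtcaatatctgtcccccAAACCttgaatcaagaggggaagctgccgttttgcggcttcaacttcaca
Tfcp2l1 distal 3′UTR peak: tctcaggccagtctGGACtattaaa
Klf5 distal 3′UTR stretch: gctgttaaccaaaGGACagaaaccacaagc

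The mRNAs of these factors kept most of their peak-covered sequence after Dox, whereas the Dox list as a whole was smaller. Of 36651 exon bases, DMSO peaks covered 13450 (36.7%) and Dox peaks 12475 (34.0%), a ratio of 1.08. Over the whole lists the same ratio was 1.47, with 3618790 bases in DMSO peaks and 2461438 in Dox peaks. The lists had 11900 bases of these genes in common, which was 88.5% of the DMSO bases and 95.4% of the Dox bases. The shares of common bases over all genes are not given here, so whether these shares are particular to these genes is unknown. The position below the whole lists depended on the score, because among peaks with a score of at least 15, which left Klf4, Esrrb and Tbx3, the ratio was 1.95 against 1.70 for the lists, while at a score of at least 12 it was 0.938 against 1.59. With 1 list per treatment and no expression values, fewer transcripts and less methylation per transcript cannot be told apart, and depth cannot be told apart from either.

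Of the 7 genes with peaks in both lists, 6 lay toward the low end of the ratio of DMSO to Dox bases, and Tfcp2l1 lay above its median. Among the 4730 protein-coding genes with a peak in both lists the median ratio was 1.42 (quartiles 1.14 and 2.00), and 8.08% of genes had more Dox than DMSO bases. The ratio was 0.991 in Tbx3, 1.00 in Klf2, 1.02 in Klf4, 1.02 in Esrrb, 1.07 in Zfp42 and 1.12 in Klf5. It was 1.56 in Tfcp2l1, above the ratios of 58.1% of those genes. Genes with long coverage had lower ratios, as the 804 genes whose mean of DMSO and Dox bases was at least 1000, a threshold chosen after the values were seen, had a median of 1.28 (quartiles 1.14 and 1.49), and 4.60% of them had more Dox bases. The 1.56 of Tfcp2l1 lay above the upper quartile of those genes, and the ratios of the other 6 factors lay below the lower quartile.

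**Figure D1:**
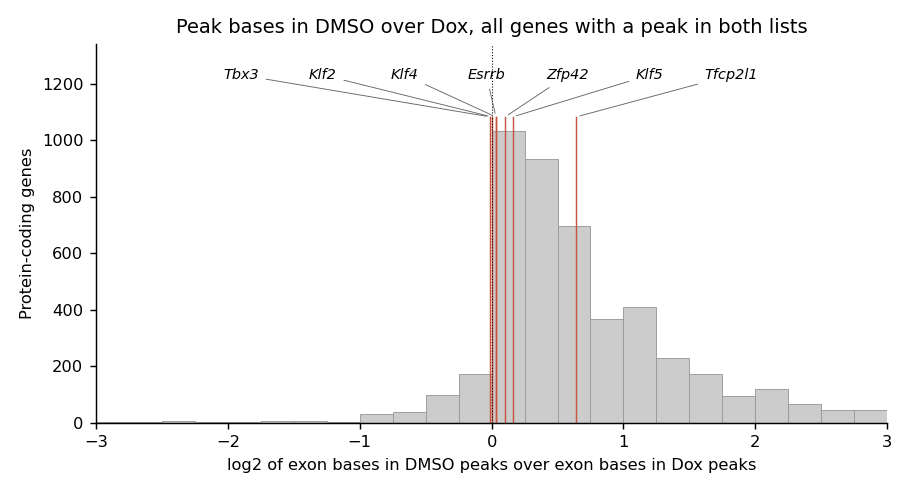
The histogram counts protein-coding genes with a peak in both lists (vertical axis) by the log2 of their exon bases in DMSO peaks over those in Dox peaks (horizontal axis, bins of 0.25), and 140 genes beyond −3 or 3 are not drawn. Red lines mark 7 naive factors, of which Tbx3, Klf2, Klf4, Esrrb, Zfp42 and Klf5 stand close to 0, the point of equal coverage, and Tfcp2l1 at a ratio of 1.56 stands to the right.

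Nearly all Dox peaks of these genes shared at least 1 base with a DMSO peak, as did most Dox peaks of the whole list. A DMSO peak overlapped 32 of 33 Dox peaks, or 97.0% (Wilson 95% interval 84.7 to 99.5, counting error only), and the share over all Dox peaks was 92.7%. Requiring 50% of both peaks gave 72.7% for these genes, and that share over all Dox peaks is not given here. A Dox peak overlapped 27 of 34 DMSO peaks, or 79.4% (63.2 to 89.7), against 57.0% of all DMSO peaks. The peaks of these genes were longer than most, and among DMSO peaks of at least 200 nt the shares were 21 of 21 for these genes and 93.3% for the list. Merging overlapping peaks gave 32 sites, of which 24 were in both lists, 7 in the DMSO list alone and 1 in the Dox list alone. At 16 sites a lone peak of one list faced a lone peak of the other, and the DMSO peak was longer at 11 of them, the Dox peak at 4 and neither at 1. Over all 8891 such pairs of the lists the DMSO peak was longer in 68.9%, its Dox counterpart in 10.9% and neither in 20.2%. Of the 1550 bases that only DMSO peaks covered, 525 lay in the DMSO-only sites and 1025 at the margins of sites present in both lists or in gaps within them. Of the 575 bases that only Dox peaks covered, 75 lay in the Dox-only site and 500 in sites present in both lists.

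The peaks of these genes were broader than most. Their median length was 237.5 nt in the DMSO list and 200 nt in the Dox list, against 125 nt over all peaks of either list. Lengths of 600 nt or more were reached by 9 of 34 DMSO peaks (26.5%, against 4.83% of the list) and by 8 of 33 Dox peaks (24.2%, against 4.42%). More of them were also spliced, meaning that they ran across an exon junction, with 44.1% of DMSO peaks against 26.4% of the list and 48.5% of Dox peaks against 21.8%. A longer peak crosses a junction more often by construction, and the part of peak length in these shares was not tested. RNA had been fragmented to about 150 nt before the IP, so that the longest peaks spanned many fragments and a peak does not locate the methylated base.

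**Figure D2:**
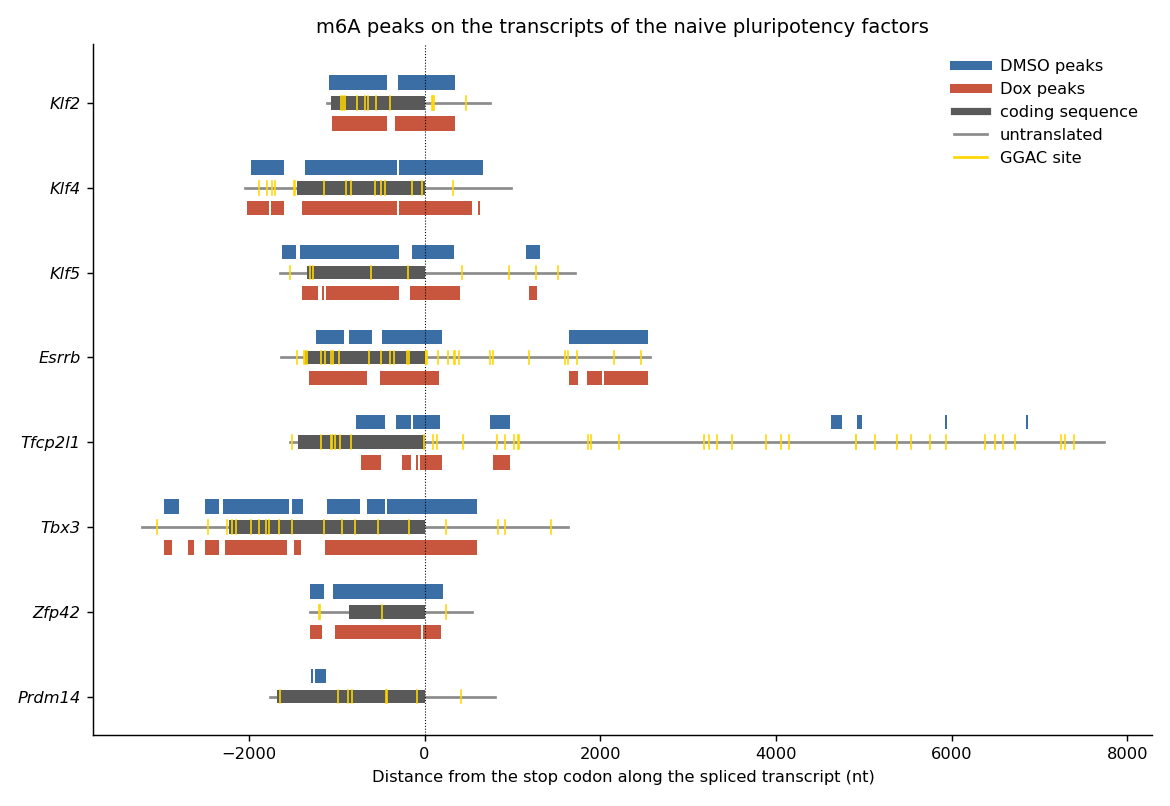
Each row is the transcript with the longest coding sequence of a gene, drawn along the distance in nt from its stop codon (0), with the coding sequence as a dark bar, untranslated sequence as a grey line, GGAC sites as yellow ticks, DMSO peaks above in blue and Dox peaks below in red. Peaks of both lists ran over the stop codon in every gene but Prdm14, and the scattered DMSO peaks in the far 3′UTR of Tfcp2l1 had no Dox peak beneath them.

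Klf2, Klf4 and Klf5, the Krüppel-like factors, had peaks over most of their coding sequence under both treatments. Klf2 (chr8:72319033-72321656, plus strand) had 2 peaks covering 1300 bases in each list, or 70.4% of its exon bases, and 98.1% of those bases were the same. The first Klf2 peak spanned 650 nt in the DMSO list and 625 nt in the Dox list and held 7 GGAC in both, and the second ran 650 and 675 nt across the stop codon. Their scores changed places, the first peak being at percentile 76.3 in DMSO and 54.9 in Dox, and the second at 49.7 and 77.5. The start codon of Klf2 lay inside the DMSO peak and outside the Dox peak, a shift of 25 nt at its edge.

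Klf4 (chr4:55527143-55532466, minus strand) had 3 DMSO peaks with 2375 bases and 5 Dox peaks with 2325 bases, although 96.8% of the Dox bases lay in DMSO peaks. The higher Dox count came from sites that were split. A 5′UTR peak of 375 nt in the DMSO list corresponded to Dox peaks of 250 and 150 nt, and a peak of 950 nt over the stop codon corresponded to Dox peaks of 825 and 25 nt. The middle peak, inside the coding sequence, measured 1050 nt in DMSO and 1075 nt in Dox with 6 GGAC in each. By percentile the middle peak led in DMSO (90.6, against 77.2 in Dox) and the stop codon peak led in Dox (94.6, against 76.2 in DMSO). The Dox peak of 25 nt was the only peak of all members with a near-identical sequence elsewhere in the genome. That search used the 25 nt alone, and the DMSO peak of 950 nt that holds the same bases had no such match. Whether the longer reads of this peak are assigned uniquely was not tested.

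Klf5 (chr14:99298691-99315036, plus strand) had 4 DMSO peaks with 1900 bases and 5 Dox peaks with 1700 bases. Its 5′UTR accounted for most of the difference, with 229 of 304 nt in DMSO peaks and 54 in Dox peaks, because a 5′UTR peak of 150 nt was in the DMSO list alone and the neighbouring peak began later in the Dox list. That neighbour, of 1125 nt in DMSO, was split into 175, 25 and 825 nt in Dox. The peak over the stop codon measured 475 nt in DMSO and 575 nt in Dox and held 0 GGAC in either, with 9 and 12 DRACH matches. The distal 3′UTR peak, whose GGAC is printed above, was at percentile 86.4 in DMSO and 43.3 in Dox.

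Esrrb (chr12:86361117-86521628, plus strand) had 6 DMSO peaks with 2225 bases and 7 Dox peaks with 2175 bases. The best-scoring peak of all members was a spliced DMSO peak of 100 nt at its exon 3, with a score of 26.7 at percentile 98.6. Of its bases, 78 lay in exon 3 of the transcript used for positions, and the rest lay outside that transcript. In the Dox list the same bases belonged to a peak of 550 nt, 527 of them on that transcript, that also took in exon 2, at percentile 81.3. Downstream, the coding peak in exon 6 measured 250 and 275 nt and the peak over the stop codon 450 and 425 nt, the latter at percentile 92.7 in DMSO and 92.8 in Dox. A far 3′UTR peak of 900 nt, near the end of the transcript, was split into 100, 175 and 500 nt in Dox, and its percentile of 81.6 in DMSO compared with 48.5 to 55.6 in Dox. Esrrb was the only member whose 5′UTR exceeded 100 nt and had 0 bases in peaks of either list.

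Tbx3 (chr5:119670669-119684724, plus strand) had the most covered bases of these genes and was the only one with more bases in the Dox list. Its 7 DMSO peaks covered 2800 bases and its 6 Dox peaks 2825, which placed it at rank 140 of 6064 genes by bases in DMSO peaks and at rank 68 of 4879 by bases in Dox peaks. The peak over the start codon held 8 GGAC in both lists, with 750 nt in DMSO at percentile 91.3 and 700 nt in Dox at percentile 95.3. Over the last 2 exons, DMSO peaks of 375, 200 and 1025 nt were joined in Dox into a peak of 1725 nt, the longest of all member peaks. A 5′UTR peak of 75 nt at percentile 8.35 was the only Dox-only site of the 8 genes. In contrast, the short peak in exon 4 measured 125 nt at percentile 95.6 in DMSO and 75 nt at percentile 14.3 in Dox. The genes nearest to Tbx3 in the pair of values 42.3% of exon bases in DMSO and 42.6% in Dox, out of 6081 compared, were Gm20521 (42.2% and 42.2%), Dmwd (42.1% and 41.1%) and Zfp830 (44.0% and 44.0%).

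Zfp42 (chr8:43295063-43306980, minus strand) was covered over the whole of its short coding sequence. A DMSO peak of 1250 nt ran from the 5′UTR to the 3′UTR and held all 867 coding bases, and in Dox the same region had peaks of 975 and 200 nt, leaving 842 of 867 coding bases covered. This long peak held 1 GGAC, whereas the peak of 200 nt (175 nt in Dox) at the 5′ end of the transcript held 2. The 5′ peak was at percentile 74.8 in DMSO and 88.2 in Dox.

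Tfcp2l1 (chr1:118627945-118685168, plus strand) differed most between the lists among the genes with peaks in both. It had 8 DMSO peaks with 1250 bases and 5 Dox peaks with 800 bases, which were 13.2% and 8.48% of its exon bases. Its 3′UTR of 7734 nt was by far the longest of the 8 genes. Peaks around the stop codon and 861 nt beyond it (874 nt in Dox) were in both lists, whereas 4 peaks of 125, 50, 25 and 25 nt, centred 4686 to 6861 nt beyond the stop codon, were in the DMSO list alone, at percentiles from 34.7 to 70.2. The coding peaks were shorter in Dox too, with 325 against 225 nt and 175 against 100 nt, and coverage of the coding sequence was 43.7% in DMSO and 28.1% in Dox. None of these coding peaks held GGAC.

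Prdm14 (chr1:13113457-13127163, minus strand) stood at the other end. Its DMSO peaks, of 25 and 125 nt in exon 2, covered 150 of 2564 exon bases, with scores at percentiles 3.04 and 10.5, and its Dox list had none. Neither peak held GGAC, while the transcript had 8 GGAC sites, all outside them. Prdm14 was also the only member with a DMSO peak whose stop codon was not covered. The Prdm14 peaks were not among the 13001 best-scoring peaks of the DMSO list, the number of peaks in the Dox list.

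**Figure D3:**
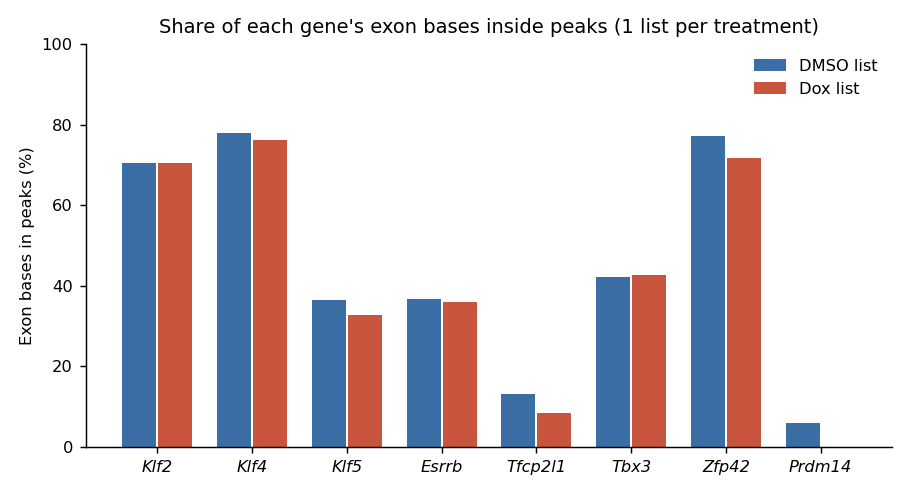
Bars give the percent of each gene's exon bases that lay inside peaks of the DMSO list (blue) and the Dox list (red), with 1 list per treatment and therefore no error bars. Zfp42, Klf4 and Klf2 were covered over more than 70% in both lists, and Tfcp2l1 and Prdm14 had the lowest bars.

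The score of the peaks was above the middle of the list for most members. The median percentile was 71.6 over the 34 DMSO peaks and 74.7 over the 33 Dox peaks, and 23 and 26 of them were at or above the list's median score. The 7 sites without a Dox peak ranged widely, since those of Tfcp2l1 reached percentile 70.2, that of Klf5 was at 42.1 and those of Prdm14 reached 10.5.

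**Figure D4:**
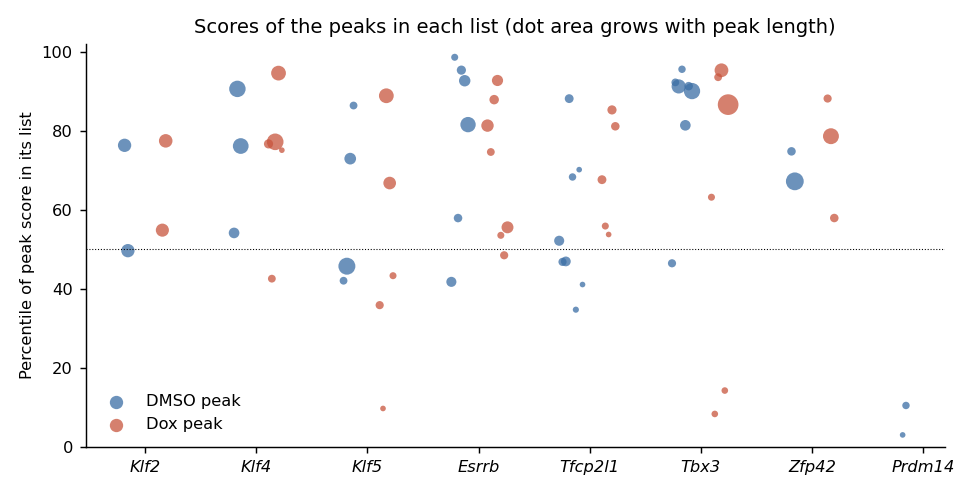
Each dot is a peak, placed by the percentile of its score among all peaks of its own list (vertical axis) for each gene (horizontal axis), with larger dots for longer peaks, DMSO in blue and Dox in red, and a dotted line at percentile 50. Klf4, Esrrb and Tbx3 reached above percentile 90 in both lists, and both Prdm14 dots lie near the bottom.

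The stop codon was inside a peak in 7 of 8 members with a DMSO peak and in 7 of 7 with a Dox peak, against 42.1% and 39.0% of genes with a peak in the list. The start codon was covered in 4 of 8 members in DMSO (Klf2, Klf5, Tbx3 and Zfp42) and in 3 of 7 in Dox (Klf5, Tbx3 and Zfp42), against 9.76% and 9.69%. Coverage of the 5′UTR was likewise common, found in 5 of 8 members in DMSO (Klf2, Klf4, Klf5, Tbx3 and Zfp42) and in 4 of 7 in Dox (Klf4, Klf5, Tbx3 and Zfp42), against 14.5% and 14.1% of genes with a peak. A longer peak takes in a given codon more often by construction, and the part of peak length in these counts was not tested. The middle base of a peak lay within 200 nt of the stop codon in 17.6% of the members' DMSO peaks (8.35 to 33.5) and 21.2% of their Dox peaks (10.7 to 37.8), close to the 22.9% and 25.1% of the lists.

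By bases, coding sequence was the most densely covered. Over the 7 transcripts with peaks in both lists, DMSO peaks held 49.5% of 5′UTR, 80.5% of coding and 25.1% of 3′UTR bases, and Dox peaks held 40.5%, 79.4% and 22.1%. With Prdm14 included, DMSO peaks held 69.9% of coding bases. Over the 4707 genes with peaks in both lists the shares were 7.76%, 25.0% and 10.5% in DMSO and 6.31%, 17.5% and 7.48% in Dox. Of the covered bases themselves, a smaller part was coding in the 7 factors than in those genes, with 59.5% against 74.3% in DMSO and 62.6% against 73.7% in Dox. The 5′UTR held 10.3% against 2.63% in DMSO and 8.99% against 3.03% in Dox, and the 3′UTR held 30.2% against 23.0% and 28.4% against 23.3%.

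**Figure D5:**
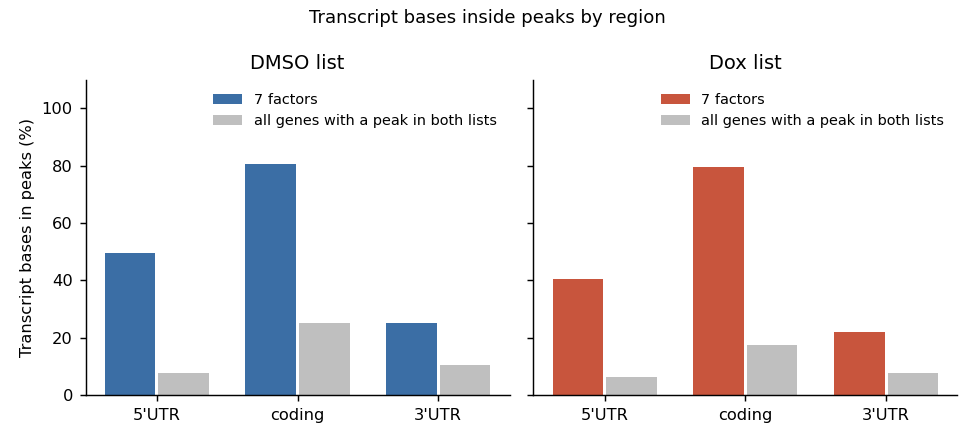
Bars give the percent of 5′UTR, coding and 3′UTR bases inside peaks, pooled over the 7 naive factors with peaks in both lists (coloured) and over all protein-coding genes with peaks in both lists (grey). Coding sequence was highest in both panels, at 80.5% in DMSO and 79.4% in Dox for the naive factors.

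The codons of the zinc fingers lay inside peaks in Klf2, Klf4 and Zfp42, as did most of their other coding sequence. Fingers were located by the spacing of cysteines and histidines in the translated coding sequence, which found 3 each in Klf2, Klf4 and Klf5, 4 in Zfp42 and 5 in Prdm14. All finger bases of Klf2 and Klf4 lay in peaks of both lists, and those of Zfp42 were covered to 100% in DMSO and 93.3% in Dox. The rest of the coding sequence was covered to 85.5% and 87.8% in Klf2, 91.3% and 93.3% in Klf4, and 100% and 98.8% in Zfp42. In Klf5 a gap between peaks fell on the fingers, and 56.7% of their bases were covered in DMSO and 65.7% in Dox, while the rest of its coding sequence was covered to 94.4% and 88.4%. In Prdm14 0 finger bases were covered.

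GGAC sites in the transcripts of these genes were covered alike in both lists. Searched on the transcript strand, the 8 transcripts held 139 GGAC sites, of which 65 lay in peaks of both lists, 3 in DMSO peaks alone, 1 in a Dox peak alone and 70 in neither. Of the 131 sites in the 7 genes with peaks in both lists, DMSO peaks held 68 (51.9%) and Dox peaks 66 (50.4%), against 26.2% and 19.9% of the sites in all genes with peaks in both lists. Peaks also covered more of the transcripts of the 7 genes, with 46.5% of bases in DMSO and 43.6% in Dox. In all genes with peaks in both lists these shares were 18.2% and 12.8%. Inside the peaks of the 7 factors there were 5.15 GGAC per kb in DMSO and 5.33 in Dox, and outside them 4.15 and 4.06. Over all genes with peaks in both lists there were 6.13 and 6.60 inside, and 3.82 and 3.90 outside. Coverage of the sites ran from 0 of 8 in Prdm14 and 5 of 40 in both lists for Tfcp2l1 to 10 of 12 for Klf2 and 13 of 15 for Klf4.

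By peak, GGAC was in 67.6% of the members' DMSO peaks (50.8 to 80.9) and 63.6% of their Dox peaks (46.6 to 77.8), against 54.0% and 55.9% of all peaks. A longer peak has more places for any motif, and among peaks of at least 100 nt, a threshold added after the data were seen, the shares were 73.3% against 70.7% in DMSO and 75.0% against 73.0% in Dox. The reverse complement GTCC, searched on the same strand as a reference for base composition, was in 55.9% and 54.5% of the members' peaks against 36.6% and 37.0% of all peaks. DRACH, which includes GGAC followed by A, C or T, was in 94.1% and 87.9% of the members' peaks against 84.9% and 85.4%.

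Other genes of the pluripotency network gave values on both sides of those of the naive factors. The core factors Nanog, Sox2, Pou5f1 and Sall4 had a peak in each list, with 14 peaks in each and 6825 and 6700 bases, a ratio of 1.02 beside the 1.08 of the naive factors, and Sall4 had the most peaks (6 in DMSO and 7 in Dox). Of 12 other factors of the ESC network, 11 carried peaks in DMSO and 10 in Dox, at a ratio of 1.28. Zscan10 had the most peaks (7 and 8), and Stat3, the transcription factor activated by leukemia inhibitory factor signalling, had 5 DMSO peaks of 225 bases in all and 0 Dox peaks. Of 10 factors of the formative or primed state, peaks were found in 5 under DMSO and in 5 under Dox, at a ratio of 1.20. Dnmt3b, a de novo DNA methyltransferase, had 2 peaks in the DMSO list alone, Sox3 had 6 in the Dox list alone, the most of that list, and Etv5 had the most in DMSO with 5. Of 22 closest relatives of the members, peaks fell on 11 under DMSO and on 10 under Dox, at a ratio of 1.24, Klf9 having the most in DMSO (7), Klf9 and Klf3 the most in Dox (7 each) and Klf12 being in the DMSO list alone.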

How the data were processed

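m6A was measured by MeRIP-seq in 8 libraries of E14 ESCs given DMSO or Dox. According to the study's methods and the submitters' processing notes, reads were filtered with fastp 0.19.4 and aligned to mm10 with HISAT2 2.2.1, and exomePeak2 called peaks from IP and input, whose version and settings were not given in the sources used here. The deposited lists held 1 line per peak with its exon blocks and a value read as the authors' −log10 p-value, because the lowest was 10.0 and 4 were infinite. Whether it was adjusted was not stated. Replicates had been combined, and depth was not analysed here.

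Peaks were joined to GENCODE M21 exons, and 99.8% of inner block edges in each list met an annotated exon edge. Overlap meant 1 or more bases in common between the lists on the same strand. Positions used the transcript with the longest coding sequence. Other loci with 98% identity over 90% of a peak were sought using blastn 2.17.0. Sequences came from the GRCm38 assembly through pysam 0.24.0, and 7 DMSO and 4 Dox peaks on unplaced sequence were left out of motif counts. Python 3.11.15, numpy 2.4.6, scipy 1.17.1 and matplotlib 3.10.9 were used. Overlap and position steps were tested on simulated peaks. Wilson 95% intervals cover counting error only, and peaks are not independent replicates.

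The members, gene lists and alternatives were chosen with earlier results of these data known. Named genes were the 8 members, the genes of each list with a peak in 1 treatment alone or with the most peaks in a list, and the 3 genes with coverage nearest to that of the member with most DMSO bases, among genes of at least 1000 exon bases. The 2C-like markers are given as counts. Alternatives covered score thresholds, equal list sizes, the overlap rule, strand, the transcript, the stop codon window, the motif and near-identical loci.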

Additional observations from a re-analysis of the deposited data

How the results depend on the processing

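Of 66 alternatives over 13 results, 52 moved the value by less than its limit and 14 moved it further, and the cause was not tested. Some of the 52 could not move a value. No member peak lay in a same-strand exon of another gene, and 0 of 34 DMSO peaks had a near-identical locus to leave out. GTCC, a reference for base composition, was also counted among the 52 in both lists. A score of at least 12 left 20 DMSO and 19 Dox peaks, lost Prdm14 from the DMSO list, gave GGAC in 78.9% of Dox peaks and overlap for 68.4% of Dox peaks, and turned the ratio of DMSO to Dox bases to 0.938. The shares of GGAC and overlap over all Dox peaks at that score are not given here, so whether those moves are particular to the members is unknown. A score of at least 15 left 9 DMSO peaks with 4100 bases in 3 genes and 4 Dox peaks with 2100 bases in 3 genes (Klf4, Esrrb and Tbx3 in each list), a ratio of 1.95, where the whole lists gave 1.70. Equal list sizes lost Prdm14 from the DMSO list and gave a ratio of 1.07, where the whole lists gave 1.28. The ratios of 0.938 and 1.07 were counted as within the limit, which thus allowed a move from 1.08 to 0.938. So was the loss of Prdm14 at a score of at least 12 and at equal list sizes. Requiring 50% of both peaks lowered the overlap of Dox peaks to 72.7%, again without the share over all Dox peaks. DRACH in place of GGAC raised the shares to 94.1% and 87.9%. The ratios, the equal list sizes applied to them and the length limit on GGAC were added after the data were seen. Both Prdm14 peaks scored low in the DMSO list, and depth is unknown. No paired analysis was possible because replicates were already combined into 1 list for each treatment, and for the same reason no replicate was left out.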
